A study of Mus musculus with 8 samples.

Results

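Heart macrophages that carried complement C1q transcripts and no transcript of Lyve1, Timd4 or Folr2 were described in 4 recipient mice. The cells were chosen on raw unique molecular identifier (UMI) counts, so the choice read the same libraries as the results. A heart barcode was taken with at least 5 UMIs of C1qa, C1qb and C1qc together and 0 UMIs of Lyve1, Timd4 and Folr2. It also had fewer than 5 UMIs of the GFP features agfp and kgfp, 0 UMIs of the B cell gene Cd79a, and at most 5 UMIs of the neutrophil genes S100a8 and S100a9. Every barcode had at least 200 genes, at most 10% mitochondrial UMIs, and at least 10 hashtag UMIs of which 80% or more were from the heart antibody. In all, 555 of 11130 barcodes met the rule, with 61 in control 1, 152 in control 2, 180 in stroke 1 and 162 in stroke 2. They are called negative macrophages here, and the 1416 cells that met every other limit but held 1 or more UMIs of the 3 genes are called positive macrophages. A further 228 C1q-positive heart cells with 5 or more GFP UMIs, within the same Cd79a and S100 limits, are called GFP-rich macrophages.

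All 4 recipients were Mx1Cre:c-Mybfl/fl mice, in which an inducible Cre can delete c-Myb, a gene that blood-forming cells require. The 2 control mice received bone marrow of control donors and the 2 stroke mice received bone marrow of stroke donors, so both groups share the transplant and the recipient genotype. CD45+CD11b+ cells, that is leukocytes with a myeloid integrin, were sorted from the heart and the blood of each mouse, stained with a different hashtag antibody for each organ, pooled, and read as 1 droplet library per mouse. The labels give no age, no interval after transplant, and no account of which cells carry GFP, and they do not say whether the donors were separate animals. Mx1Cre acts beyond the blood, and the host cells left in each heart are not given.

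Macrophages of the mouse heart are usually divided into a long-lived population, seeded early and marked by Lyve1, Timd4 and Folr2, and populations without these genes that are replenished from blood monocytes to differing degrees. The latter are known for MHC class II molecules, which present peptides to CD4+ T cells, and some carry Ccr2, the receptor through which monocytes follow Ccl2 and related chemokines. C1q, made by tissue macrophages, starts the classical complement pathway and tags dying cells for uptake.

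The organ of each cell was read from a 15-base antibody barcode, and the pair is shown because every cell counted here rests on it.
Heart hashtag: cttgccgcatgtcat
Blood hashtag: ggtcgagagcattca
The median negative macrophage held 837 hashtag UMIs, of which 99.8% (99.754%) were the heart sequence.

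Libraries held 10067873 to 16513840 gene UMIs. The negative macrophages had a median of 3999 UMIs, against 4997 in the positive and 9440 in the GFP-rich macrophages, and a median of 58, 86 and 75 C1q UMIs respectively. A cell of lower depth can hold 0 UMIs of 3 genes through sampling, and such cells cannot be told apart from cells that lack the transcripts. Next to the limit stood 194 cells with exactly 1 UMI of the 3 genes and 125 with exactly 2. At the other limits, 9 members had exactly 5 C1q UMIs and 13 further cells had 4. GFP was at 0 in 489 members, 3 members had 4 GFP UMIs and 2 further cells had 5. Over the heart barcodes past the filters, control 1 stood apart, with 369 UMIs of the Y-linked Ddx3y and 1 of Xist. The other 3 mice held 4268 to 4951 UMIs of Xist and 1 or 2 of Ddx3y in such barcodes. There, transcripts of kgfp were read in control 1 only. Libraries shared 14 barcode sequences, none of them in a negative macrophage.

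The cells carried the general macrophage genes in every mouse. Csf1r, the receptor for macrophage colony-stimulating factor, was at 612, 604, 564 and 641 CPM in control 1, control 2, stroke 1 and stroke 2, an order kept throughout, where CPM stands for counts per 1000000 gene UMIs of the summed cells. Adgre1, which encodes F4/80, was at 542, 475, 428 and 464 CPM. These levels lay within a narrow range in all 4 mice. Markers listed for other leukocytes were present to differing degrees. Ly6g of neutrophils and Cd3e of T cells were at 0 UMIs in all 555 cells, and the dendritic cell gene Flt3 had 7 UMIs in 6 cells. Other members of such lists were plentiful, with 1207 UMIs of the lectin Mgl2 in 352 cells, 696 of Sirpa in 349, 602 of Cadm1 in 269, 457 of the immunoglobulin gene Ighm in 252 and 76 of Csf3r in 64. The fibroblast gene Col1a1 was also at 0, while Gsn of the same list had 282 UMIs in 208 cells. Cardiomyocyte transcripts were present, with a sum over 9 listed genes of 430.3, 303.5, 279.4 and 218.3 CPM in the negative macrophages, and none of the 9 was at 0. In total, 329 of the 555 cells (59.3%) held 2 or more UMIs of listed genes of other cell types. The 6 listed erythroid genes summed to 3.2, 6.7, 11.8 and 7952.9 CPM, and in stroke 2 a single barcode held most of it, including 2425 of the 2441 Hbb-bs UMIs of the set. Levels in stroke 2 include that barcode in the total.

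All 6 markers that go with the label were read in every mouse, and their levels are given as a description with no test. H2-Aa, an MHC class II alpha chain, was at 5890, 5804, 4815 and 6266 CPM in the negative macrophages and at 1578, 2227, 1605 and 2012 CPM in the positive ones. Ms4a7, a membrane protein of macrophages, was at 484, 617, 751 and 777 CPM against 312, 443, 534 and 449. The negative macrophages were the higher set for both genes within each mouse. Cxcl16, a chemokine and scavenger of oxidised lipid, was at 268, 345, 429.6 and 386 CPM against 215, 201, 253 and 239. Vcam1, an adhesion molecule, was at 108, 138, 139.7 and 161 CPM against 57.1, 85.6, 52.2 and 78.2. These 2 genes had the same order of the sets in 4 of 4 mice. Ccl12, a chemokine that draws monocytes, went against the label, with 163, 280.0, 390.4 and 87 CPM in the negative and 259, 189, 481 and 138 CPM in the positive macrophages. It was the higher in the negative set in 1 of 4 mice. C1qa, part of the choice itself, was at 4229, 5874, 5833 and 6020 CPM against 5622, 7064, 6858 and 6981.

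**Figure D1:**
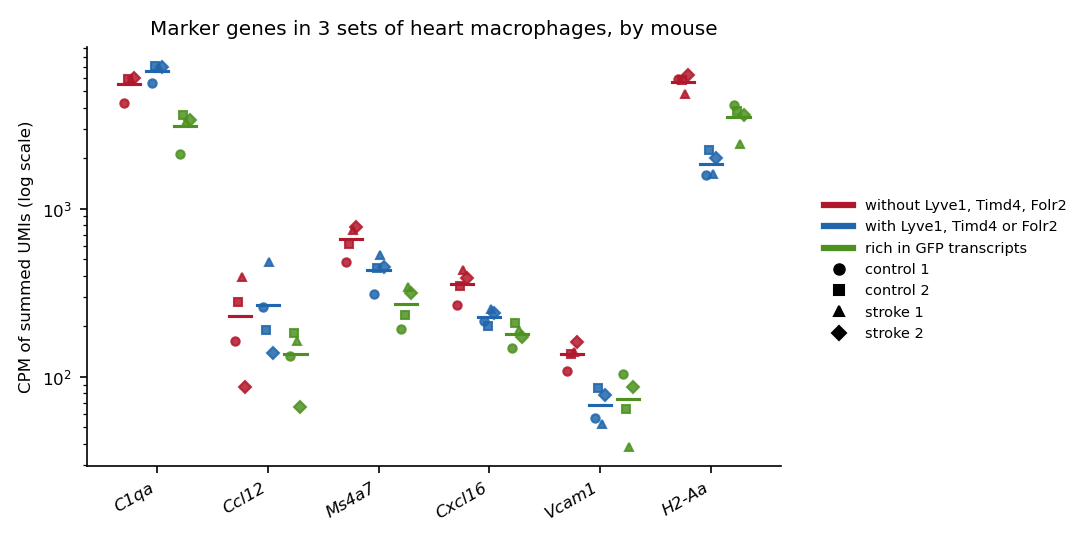
Levels of the 6 marker genes in CPM of summed UMIs (log axis) in negative (red), positive (blue) and GFP-rich (green) macrophages; each symbol is 1 mouse and each bar the mean of 4 mice. H2-Aa stood at 4815 to 6266 CPM in the negative and 1578 to 2227 CPM in the positive macrophages, while Ccl12 overlapped between these sets.

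The negative macrophages formed 8.311%, 9.651%, 10.863% and 11.929% of all heart barcodes in control 1, control 2, stroke 1 and stroke 2. Binomial 95% intervals by the exact Clopper-Pearson method, for counting error alone, ran from 6.416 to 10.548%, 8.237 to 11.217%, 9.405 to 12.461% and 10.252 to 13.773%. The groups did not overlap, with means of 11.4% ± 0.754 and 8.98% ± 0.948 (SD, n = 2 each). The difference of 2.415 percentage points had an exact two-sided permutation p = 0.33, the smallest that 2 mice against 2 can give. Of C1q-positive heart barcodes within the Cd79a and S100 limits, the negative macrophages formed 29.048%, 23.824%, 23.684% and 27.411%. On this denominator the groups overlapped, with a difference of -0.889 percentage points (exact two-sided permutation p = 0.667). The shares are of barcodes in sorted suspensions, so they do not give cells per heart.

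**Figure D2:**
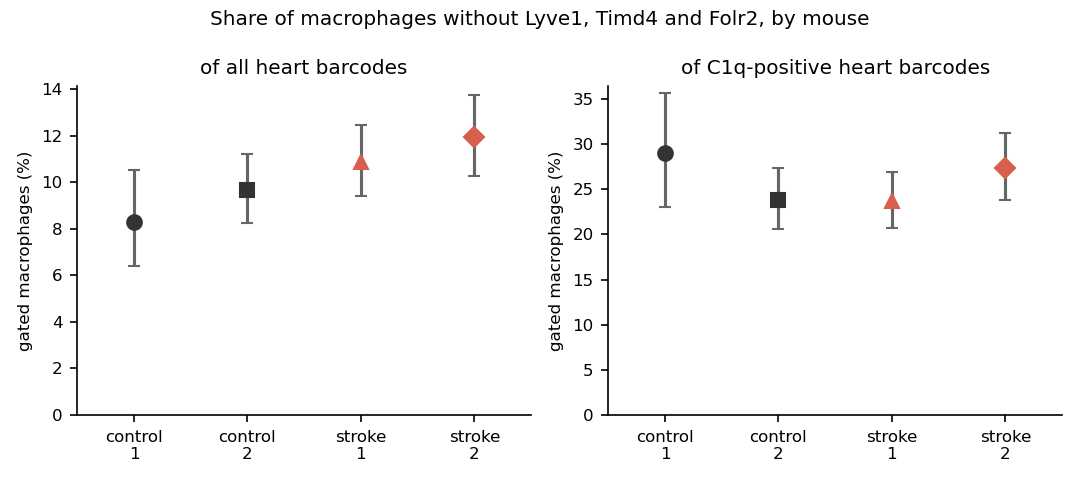
Share of negative macrophages by mouse (%), of all heart barcodes on the left and of C1q-positive heart barcodes on the right; bars are exact 95% binomial intervals. The stroke mice are above the control mice on the left (10.863 and 11.929% against 8.311 and 9.651%) and the groups overlap on the right.

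Against the positive macrophages of the same hearts, the negative macrophages had higher transcripts of most tested MHC class II genes (10 of 11) and lower transcripts of most resident cardiac macrophage (20 of 22) and complement genes (6 of 10). Interleukin-1 and inflammasome genes had 6 of 12 higher and 1 lower, while chemokines went both ways. UMIs were summed per mouse and set and compared within mice by an edgeR quasi-likelihood test with the mouse as a block, with Benjamini-Hochberg adjustment over 7993 genes and a threshold of 0.05. The 11 features read by the choice were left out. At this threshold 1278 genes (16.0%) differed, 715 of them (8.95%) higher and 563 (7.04%) lower in the negative macrophages. The cells were split on Lyve1, Timd4 and Folr2, so genes that go with these 3 differ through the split itself, and these counts describe the sets and support nothing further. The negative macrophages also had the lower depth, and its part in the values below was not tested beyond thinning. The fits after thinning chose the sets again on the thinned counts, with 92, 184, 224 and 185 negative macrophages by mouse. These include cells that were outside the set at full depth, so those fits do not compare the same cells. Shares of cells with a UMI after thinning kept the full-depth sets.

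The MHC class II list moved together. Of its 11 tested genes, 10 were higher and none lower, with a median log2 fold change of 1.61 against 0.0038 over all tested genes, and the exception was the costimulatory gene Cd80. H2-Eb1, a beta chain, was at 6247, 6528, 5574 and 6793 CPM in the negative and 1546, 2268, 1649 and 1894 CPM in the positive macrophages. The sets did not overlap, and the log2 fold change was 1.82 ± 0.05 (SE, edgeR adjusted p = 8.77e-25). H2-Ab1, another beta chain, followed with a log2 fold change of 1.69 ± 0.05 (edgeR adjusted p = 8.02e-24). The invariant chain gene Cd74, which escorts class II molecules, had 1.62 ± 0.05 (edgeR adjusted p = 8.02e-24), and the peptide-loading gene H2-DMb1 had 1.67 ± 0.09 (edgeR adjusted p = 1.22e-16). Ciita, the coactivator that switches class II genes on, was at 169, 141, 83.6 and 109 CPM against 27.8, 49.97, 26.3 and 51.4. Its log2 fold change was 1.61 ± 0.15 (edgeR adjusted p = 2.01e-10).

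Class II promoters share a composite element. Among its parts are an X box read by the RFX complex, to which Ciita is recruited, and a Y box read by the factor NF-Y. Because these genes moved together, 3 promoters are shown, each the 120 bases before the annotated start on the strand of the gene, from RefSeq on build GRCm38.p6. Capitals mark CTGATTGG, a Y box sequence, and GCAAC, the core of many X boxes, both searched on both strands.
H2-Aa promoter, chr17:34287824-34287943, minus strand: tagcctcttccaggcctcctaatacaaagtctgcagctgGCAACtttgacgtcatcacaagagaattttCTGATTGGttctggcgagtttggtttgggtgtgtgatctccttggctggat
H2-Eb1 promoter, chr17:34305747-34305866, plus strand: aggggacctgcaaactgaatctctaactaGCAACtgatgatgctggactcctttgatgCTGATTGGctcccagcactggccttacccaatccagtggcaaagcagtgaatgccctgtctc
H2-DMb1 promoter, chr17:34153071-34153190, plus strand: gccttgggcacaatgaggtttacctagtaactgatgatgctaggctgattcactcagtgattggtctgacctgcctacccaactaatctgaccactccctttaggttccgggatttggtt
The motif CTGATTGG began 51 bases before the start of H2-Aa and 62 before that of H2-Eb1, and GCAAC began 81 and 91 bases before it. H2-DMb1 held neither string in this window, which says only that these letters are not there. Of 9 MHC class II list genes in the promoter table, 3 held both strings, namely H2-Aa, H2-Eb1 and H2-Oa. Over 32851 promoters of the same length, CTGATTGG was in 2.84%, GCAAC in 16.1% (16.13%) and both in 0.51%.

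Inflammatory ligands were higher in the negative macrophages, though not all of them. Il1b, which encodes interleukin-1 beta, was at 472, 607, 623 and 902 CPM against 74.6, 129, 161 and 212 CPM. The lowest negative value was above the highest positive one, with a log2 fold change of 2.19 ± 0.08 (edgeR adjusted p = 4.99e-21). After thinning each cell to 2000 UMIs, 45.6% of negative, 12.01% of positive and 48.0% of GFP-rich macrophages held an Il1b UMI, against 50.1%, 18.4% and 67.1% before thinning. Heart B cell barcodes, which should lack the gene, stood at 5.38% after thinning, but at 17.19% in stroke 1, above the 12.95% of the positive and below the 49.68% of the negative macrophages of that mouse. These B cell barcodes had no limit on C1q, so droplets that also held a macrophage were not left out. The share of positive macrophages in stroke 1 is therefore not told apart from background, and the cause was not tested. Thinning left out 79 negative, 92 positive and 5 GFP-rich cells with fewer UMIs. Of 12 tested interleukin-1 and inflammasome genes, 6 were higher and 1 lower, among them the sensor Nlrp3 at 134, 153, 252 and 112 CPM against 101, 92.1, 94.6 and 104 (log2 fold change 0.83 ± 0.14, edgeR adjusted p = 1.33e-05). Tnf had a log2 fold change of 0.93 ± 0.12 (edgeR adjusted p = 9.50e-08), while control 1 was the one mouse with the lower value in the negative set, at 233 against 259 CPM. Tnfsf13b, the B cell survival factor BAFF, was at 66.9, 41.9, 75.7 and 80.7 CPM against 8.78, 21.3, 21.2 and 21.6 (log2 fold change 1.79 ± 0.21, edgeR adjusted p = 1.96e-08).

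Chemokines divided by gene, with 6 of 18 tested higher and 7 lower. Ccl3 and Ccl4, macrophage inflammatory proteins, were higher, with Ccl3 at 296, 249.9, 316 and 240.5 CPM against 102, 70.3, 104 and 97.2 (log2 fold change 1.61 ± 0.10, edgeR adjusted p = 2.62e-15). Ccl4 had a log2 fold change of 1.64 ± 0.09 (edgeR adjusted p = 1.86e-16). Cxcl2, which draws neutrophils through Cxcr2, was at 1227, 2165, 3820 and 2526 CPM against 1144, 1176, 1731 and 1677 (log2 fold change 0.77 ± 0.08, edgeR adjusted p = 1.09e-09). Ccl3, Ccl4 and Cxcl2 were not high in all negative macrophages, and the largest cluster of these cells, described below, had low levels. The monocyte chemokine Ccl2 did not pass (log2 fold change -0.24 ± 0.12, edgeR adjusted p = 0.224), and its relatives Ccl7 and Ccl8 were lower. Ccl8 was at 3.19, 15.1, 13.1 and 6.33 CPM against 36.6, 37.9, 35.4 and 64.3 (log2 fold change -2.01 ± 0.29, edgeR adjusted p = 1.26e-06). Ccl24, a ligand of the eosinophil receptor Ccr3, was lower by 2.40 ± 0.13 on the log2 scale (log2 fold change -2.40, edgeR adjusted p = 1.72e-16). The B cell chemokine Cxcl13 was lower too, at 3.19, 52.0, 44.4 and 218 CPM against 377, 194, 303 and 467 (log2 fold change -1.94 ± 0.20, edgeR adjusted p = 1.77e-09). A single negative macrophage of stroke 2 held 97 of that mouse's 138 UMIs.

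Among chemokine receptors, Ccr2 was at 217, 131, 94.0 and 125 CPM in the negative and 86.3, 31.0, 18.6 and 47.8 CPM in the positive macrophages (log2 fold change 1.81 ± 0.15, edgeR adjusted p = 5.76e-12). It was carried by a minority of the cells: 85 of 555 held a Ccr2 UMI, 15.3%. After thinning, 13.5% of negative, 2.95% of positive and 41.7% of GFP-rich macrophages held a Ccr2 UMI, with 1.92% of heart B cell barcodes. Cx3cr1, the fractalkine receptor of macrophages and nonclassical monocytes, was at 535, 475, 433 and 473 CPM against 233, 275, 221 and 257 (log2 fold change 0.98 ± 0.08, edgeR adjusted p = 3.49e-12). Of 6 tested receptors 3 were higher, and Ccr1 was the 1 that was lower (log2 fold change -1.47 ± 0.31, edgeR adjusted p = 5.10e-04).

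The largest differences among well-read genes included Mmp12, a macrophage elastase, at 223, 78.8, 204 and 149 CPM against 19.0, 5.55, 14.2 and 6.69 (log2 fold change 3.95 ± 0.17, edgeR adjusted p = 6.42e-20). It was concentrated in few cells, 73 of 555, and 1 barcode held 43 of 70 UMIs in control 1. After thinning, 11.8% of negative and 0.53% of positive macrophages held an Mmp12 UMI. The gelatinase gene Mmp9 was lower, at 3.19, 0, 3.92 and 0 CPM against 77.5, 21.3, 3.65 and 29.8 (log2 fold change -3.72 ± 0.56, edgeR adjusted p = 3.28e-06), though not in stroke 1. Of 18 tested matrix and fibrosis genes 10 were higher and 3 lower. Itgax, which encodes CD11c, had a log2 fold change of 3.14 ± 0.50 (edgeR adjusted p = 9.82e-06) at a level of 6.37, 16.8, 32.6 and 17.4 CPM. Rgs1, a brake on chemokine receptor signals, was at 280.5, 495, 579.7 and 499.9 CPM against 73.1, 72.2, 122 and 102 (log2 fold change 2.41 ± 0.10, edgeR adjusted p = 1.92e-20). Cd9, a tetraspanin of lipid-associated macrophages, was at 217, 186, 351 and 245 CPM against 49.7, 48.6, 99.7 and 84.9 (log2 fold change 1.84 ± 0.10, edgeR adjusted p = 2.54e-16). Trem2, the lipid receptor of that same macrophage state, did not pass (log2 fold change 0.13 ± 0.10, edgeR adjusted p = 0.471). H2-M2, a nonclassical MHC class I gene, was at 25.5, 30.2, 103 and 60.1 CPM against 21.9, 1.39, 4.75 and 10.3 (log2 fold change 3.10 ± 0.34, edgeR adjusted p = 5.51e-09). Hist1h1b, a replication-linked histone, was higher through single barcodes, with all 45 UMIs of control 1 in 1 cell.

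**Figure D3:**
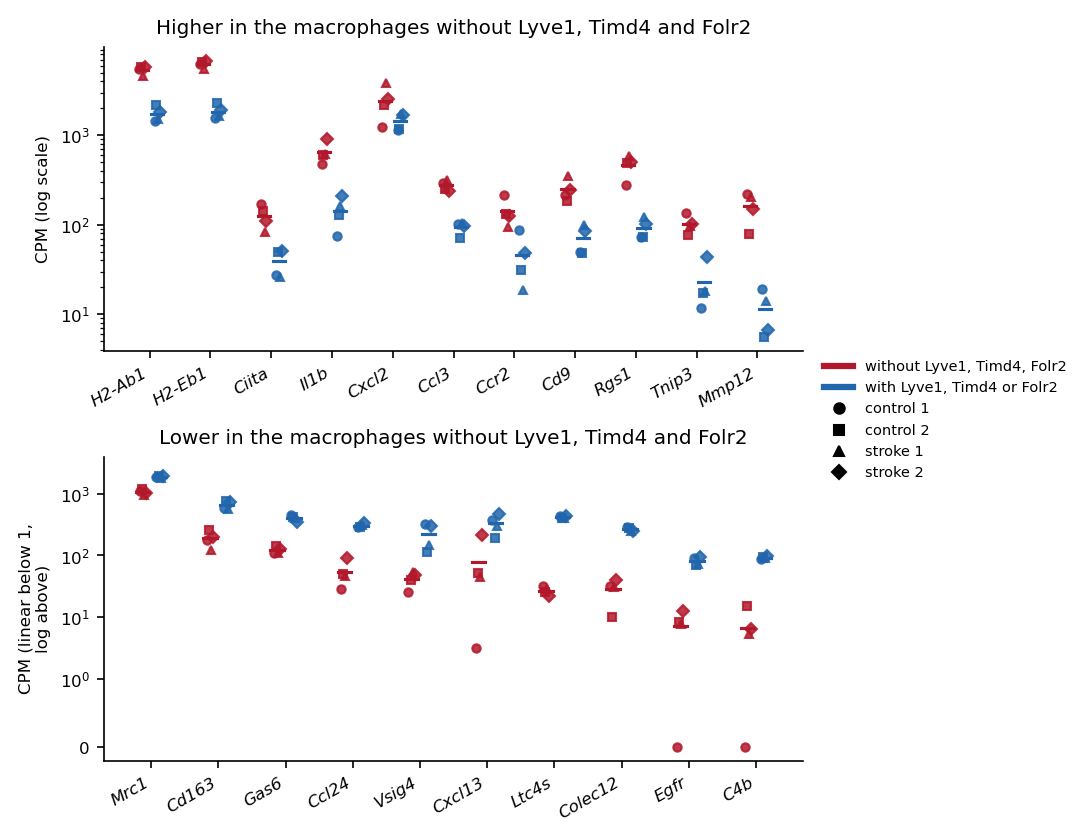
Levels in CPM by mouse for genes that were higher (top, log axis) or lower (bottom, linear below 1 CPM and log above) in negative (red) than in positive (blue) macrophages; bars are means of 4 mice. Il1b stood at 472 to 902 against 74.6 to 212 CPM and Ltc4s at 22.1 to 31.9 against 404 to 440.3 CPM.

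Genes of signalling inside the cell leaned the same way. Of 22 tested feedback inhibitors of NF-kB and MAPK signalling, 10 were higher and none lower, led by the phosphatase gene Dusp2 (log2 fold change 2.13 ± 0.19, edgeR adjusted p = 1.08e-10). Tnip3, an A20-binding inhibitor, was at 134, 77.1, 97.9 and 101 CPM against 11.7, 17.1, 18.3 and 43.7 (log2 fold change 2.11 ± 0.20, edgeR adjusted p = 1.86e-10). Of 22 tested AP-1 and immediate early genes 13 were higher and 2 lower, with a median log2 fold change of 0.38. Fos was at 3538, 4343, 3601 and 3647 CPM against 2611, 2859, 2530 and 3004. The type I interferon list had 2 of 28 genes higher and 2 lower. Oxidative phosphorylation had 0 of 73 higher and 5 lower, fewer calls than among all tested genes (16.0%). Of 12 tested cholesterol synthesis and uptake genes 6 were higher and none lower, with a median log2 fold change of 0.62. Among efflux genes, 5 of 14 were lower and 1 higher, the lower ones including the transporter Abca1 (log2 fold change -0.96 ± 0.09, edgeR adjusted p = 4.15e-10) and the phospholipid carrier Pltp (log2 fold change -1.16 ± 0.08, edgeR adjusted p = 1.80e-13).

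The resident cardiac macrophage list, set up around Lyve1, Timd4 and Folr2, was lower for 20 of 22 tested genes, with a median log2 fold change of -1.82. The exceptions were Igf1, a growth factor, and Hpgd, which inactivates prostaglandins. This direction follows from the split. Ltc4s, which makes leukotriene C4, was at 31.9, 25.2, 28.7 and 22.1 CPM in the negative and 440.3, 408, 404 and 434 CPM in the positive macrophages (log2 fold change -3.93 ± 0.13, edgeR adjusted p = 4.98e-23). Fcna, a ficolin of the lectin complement pathway, was at 0, 1.68, 5.22 and 4.75 CPM against 136, 107, 109 and 146 (log2 fold change -5.06 ± 0.27, edgeR adjusted p = 4.95e-17). The C-type lectin Cd209g had no UMI in any negative macrophage and 5.84 to 30.7 CPM in the positive ones. Vsig4, a complement receptor, was at 25.5, 40.2, 54.8 and 47.5 CPM against 322, 115, 149 and 304 (log2 fold change -2.13 ± 0.17, edgeR adjusted p = 4.18e-12).

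The haemoglobin scavenger receptor Cd163 remained at 175, 263, 121 and 198 CPM in the negative macrophages against 581, 781, 568 and 749 (log2 fold change -1.81 ± 0.09, edgeR adjusted p = 7.84e-18). The mannose receptor gene Mrc1 was at 1116, 1214, 965 and 1027 CPM against 1915, 1982, 1787 and 1926 (log2 fold change -0.78 ± 0.05, edgeR adjusted p = 5.07e-14). Both genes were therefore read in every mouse of a set chosen for the absence of 3 genes. Complement as a list had 6 of 10 tested genes lower and 1 higher, the lower ones including C4b at 0, 15.1, 5.22 and 6.33 CPM against 86.3, 95.8, 89.5 and 98.3 (log2 fold change -3.60 ± 0.25, edgeR adjusted p = 1.47e-13). Receptors of dying-cell uptake split: Axl was at 175, 88.9, 142 and 131 CPM against 58.5, 68.0, 54.1 and 72.0 (log2 fold change 1.07 ± 0.14, edgeR adjusted p = 1.98e-07). Its bridging ligand Gas6 was lower, at 112, 144, 108 and 129.7 CPM against 462, 422, 406 and 346 (log2 fold change -1.65 ± 0.10, edgeR adjusted p = 2.88e-15). Mertk did not pass (log2 fold change 0.13 ± 0.08, edgeR adjusted p = 0.348). Of 14 tested growth factor and repair genes 4 were higher and 4 lower. Egfr, the receptor for epidermal growth factor, was at 0, 8.38, 7.83 and 12.7 CPM against 92.2, 68.9, 72.7 and 93.6 (log2 fold change -3.22 ± 0.25, edgeR adjusted p = 2.02e-12).

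Scavenger and Fc receptors went both ways, with 3 of 19 tested genes higher and 7 lower. Colec12, a collectin that takes up oxidised lipoprotein, was at 31.9, 10.1, 31.3 and 39.6 CPM against 295, 278, 252 and 251 (log2 fold change -3.18 ± 0.16, edgeR adjusted p = 2.42e-17). Fcgr4, an activating receptor for IgG, was at 89.2, 116, 92.7 and 94.9 CPM against 33.6, 35.2, 35.1 and 36.0 (log2 fold change 1.54 ± 0.14, edgeR adjusted p = 1.77e-10). Both genes separated the sets completely, in opposite directions. Adhesion molecules and integrins were mostly higher, with 11 of 16 higher and 2 lower. F11r, a junctional adhesion molecule, was at 35.1, 35.2, 39.2 and 39.6 CPM against 8.78, 6.48, 6.57 and 5.66 (log2 fold change 2.55 ± 0.28, edgeR adjusted p = 8.95e-09).

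Of 19 tested transcription regulators, 7 were higher and 5 lower. Id2, an inhibitor of helix-loop-helix factors, was at 121, 80.5, 132 and 82.3 CPM against 76.1, 26.8, 42.7 and 46.8 (log2 fold change 1.28 ± 0.15, edgeR adjusted p = 3.51e-08). Klf4, a zinc finger factor of monocytes and macrophages, was at 303, 324, 238 and 219.9 CPM against 521, 544, 405 and 549 (log2 fold change -0.86 ± 0.09, edgeR adjusted p = 6.21e-10). Pparg, a nuclear receptor for fatty acids, was at 63.7, 38.6, 62.7 and 69.6 CPM against 19.0, 19.0, 24.5 and 27.3 (log2 fold change 1.38 ± 0.19, edgeR adjusted p = 7.72e-07). Each of these 3 had the same direction in 4 of 4 mice, as did 31.8% of all tested genes.

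Cell cycle genes were higher for 7 of 14 tested and lower for none, with a median log2 fold change of 0.49. Top2a, a topoisomerase of dividing cells, was at 76.5, 43.6, 20.9 and 3.16 CPM, and 1 barcode held 21 of 24 UMIs in control 1 and 23 of 26 in control 2. The level was below that of the positive macrophages in stroke 2, where these had 13.9 CPM.

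Markers of other cells moved beside these genes. The summed cardiomyocyte list was at 218.3 to 430.3 CPM in the negative and 125.5 to 388.2 CPM in the positive macrophages, with 2 of 8 tested genes higher, and its part in the differences was not tested. Of 6 tested type 2 dendritic cell markers 4 were higher and 1 lower, and the list summed to 1106.7 to 1287.6 CPM against 949.4 to 1080.9 CPM, with Ccl17 and Kit at 0 in the negative macrophages. Of 4 tested type 1 dendritic cell markers 2 were higher, and the list summed to 402.5 to 511.8 CPM against 204.8 to 259.7 CPM, led by the adhesion gene Cadm1, with 1 UMI of Xcr1 and 4 of Clec9a. Of 5 tested nonclassical monocyte markers 3 were higher, and the list summed to 186.7 to 350.6 CPM against 152.1 to 198.0 CPM. Classical monocyte markers went both ways, with 3 of 6 tested higher and 2 lower. Their list summed to less, 681.6 to 1074.1 CPM against 3462.3 to 4580.2 CPM, and was led by F13a1 in both sets. The part of these markers in the MHC class II and Itgax differences was not tested. When cells with 2 or more UMIs of other cell types' listed genes were left out, 477 of 4863 tested genes passed.

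**Figure D4:**
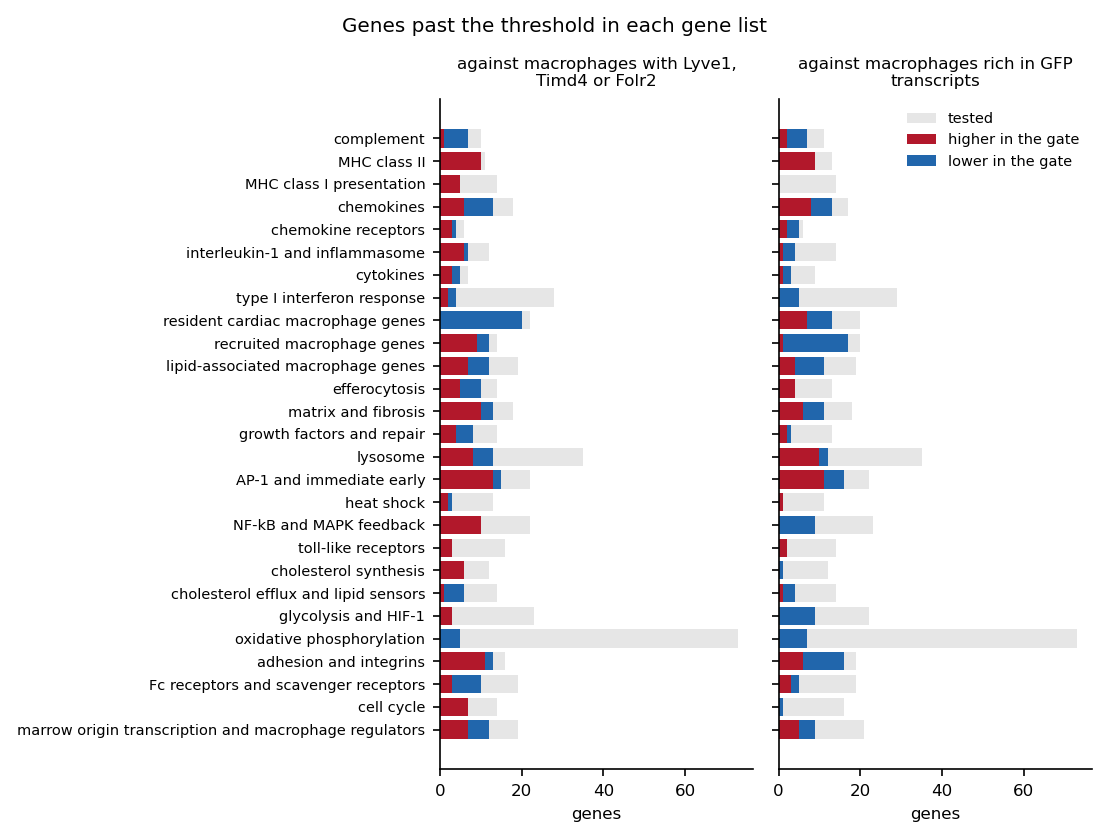
Number of genes in each list that were tested (grey) and that were higher (red) or lower (blue) in negative macrophages (called the gate in the key), against positive macrophages on the left and GFP-rich macrophages on the right. On the left 10 of 11 MHC class II genes were higher and 20 of 22 resident genes lower; on the right 16 of 20 recruited macrophage genes were lower.

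The GFP-rich macrophages differed from the negative ones in other genes, among them those of monocytes. The same test over 7682 genes found 1231 (16.0%), 546 of them (7.11%) higher and 685 (8.92%) lower in the negative macrophages. The GFP limit and the 0 UMIs of Lyve1, Timd4 and Folr2 formed part of the choice. The GFP-rich cells held a median of 9440 UMIs and had no limit on these 3 genes. These counts too are therefore descriptive, and both comparisons share the negative macrophages. All 10 listed classical monocyte genes were lower, with a median log2 fold change of -4.54, and all 10 nonclassical monocyte genes were lower, with -2.93, where 8.92% of all tested genes were lower. Ly6c2, the classical monocyte antigen, was at 6.37, 1.68, 15.7 and 0 CPM in the negative and 180.1, 105, 236 and 219 CPM in the GFP-rich macrophages (log2 fold change -4.79 ± 0.31, edgeR adjusted p = 4.17e-09). Ccr2 lay between the other sets, as it was at 742, 314, 389 and 418 CPM in the GFP-rich macrophages (log2 fold change of negative over GFP-rich -1.67 ± 0.12, edgeR adjusted p = 1.80e-08). Fn1, which encodes fibronectin, had a log2 fold change of -2.97 ± 0.24 (edgeR adjusted p = 5.47e-08), and the matrix gene Thbs1 had -4.69 ± 0.39 (edgeR adjusted p = 5.72e-08). Slpi, a protease inhibitor of myeloid cells, had no UMI in the negative macrophages and 12.5 to 77.0 CPM in the GFP-rich ones. NK cell and endothelial genes were also lower in the negative macrophages, with 4 of 6 and 3 of 3 tested. The NK cell list summed to 105.6 to 1169.6 CPM in GFP-rich and 0 to 172.4 CPM in negative macrophages. Of the GFP-rich cells 81.1% held 2 or more UMIs of other cell types' listed genes. Without Scrublet doublets 33, 40, 78 and 45 of 34, 71, 78 and 45 were left by mouse. The part of such transcripts in the monocyte differences was not tested.

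Inflammatory genes did not all follow the monocyte genes. Il1b was at 813, 664, 636 and 701 CPM in the GFP-rich macrophages and overlapped the negative ones (log2 fold change -0.07 ± 0.12, edgeR adjusted p = 0.782), and Nlrp3 overlapped as well (0.09 ± 0.16, edgeR adjusted p = 0.799). Il6 had 6.27 to 53.6 CPM in the GFP-rich set and 1 UMI over all negative macrophages. Ccl3 was higher in the negative macrophages (log2 fold change 1.15 ± 0.22, edgeR adjusted p = 8.84e-04), and so was Cxcl2 (0.72 ± 0.12, edgeR adjusted p = 1.89e-04), although control 1 had more Ccl3 in its GFP-rich cells, 336 against 296 CPM. Of the feedback inhibitors of NF-kB and MAPK signalling, 9 of 23 were lower and none higher, which is the opposite side to the comparison with positive macrophages, and Tnip3 was at 465, 547, 148 and 265 CPM in the GFP-rich cells (log2 fold change -1.62 ± 0.22, edgeR adjusted p = 2.58e-05).

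The resident cardiac macrophage list was divided against GFP-rich macrophages, with 7 of 20 tested genes higher and 6 lower and a median log2 fold change of 0.02. Among the lower ones were Ltc4s (log2 fold change -2.17 ± 0.21, edgeR adjusted p = 3.69e-07) and Fcna (-3.32 ± 0.45, edgeR adjusted p = 2.15e-05), and complement had 5 of 11 genes lower and 2 higher. Lyve1 was at 148.5, 420.4, 339 and 303 CPM in the GFP-rich macrophages, while the negative ones were chosen at 0. Genes that go with Lyve1, Timd4 and Folr2 can therefore be lower through the choice itself. Efferocytosis genes had 4 of 13 higher and none lower. The genes given by mouse in the following sentences had the same direction in 4 of 4 mice, as did 33.2% of all tested genes. Mertk, the receptor for dying cells, was at 322, 282, 269 and 288 CPM against 97.4, 139.6, 118 and 132 (log2 fold change 1.27 ± 0.13, edgeR adjusted p = 5.55e-07). Hpgd was at 688, 802, 815 and 794 CPM against 289.7, 326, 268 and 293 (log2 fold change 1.45 ± 0.09, edgeR adjusted p = 4.10e-09). Apoe, the lipid carrier, had a log2 fold change of 0.86 ± 0.05 (edgeR adjusted p = 3.00e-10) and Igf1 had 0.91 ± 0.11 (edgeR adjusted p = 9.81e-06). Of 13 tested MHC class II genes, 9 were higher and none lower, with a median log2 fold change of 0.63, while Ciita did not pass (0.13, edgeR adjusted p = 0.628). Cxcl14, a chemokine of resting tissues, was at 15.9, 31.9, 52.2 and 41.1 CPM against 4.87, 3.14, 3.73 and 7.64 (log2 fold change 3.04 ± 0.40, edgeR adjusted p = 1.44e-05). Heart muscle transcripts were also higher, with 6 of 7 tested cardiomyocyte genes, and the list summed to 51.0 to 142.7 CPM in GFP-rich against 218.3 to 430.3 CPM in negative macrophages. Myl7, an atrial myosin light chain, was at 73.3, 18.4, 26.1 and 26.9 CPM against 7.30, 4.71, 0 and 5.10 (log2 fold change 3.14 ± 0.49, edgeR adjusted p = 1.03e-04). Its part in the other differences was not tested.

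Between stroke and control marrow, few genes of the negative macrophages differed beyond the spread between mice. The edgeR quasi-likelihood test on 1 sum per mouse, 2 against 2, found 3 of 6906 genes (0.0434%), all lower with stroke marrow, and 342 genes (4.95%) had an unadjusted p under 0.05. The p-values measure the spread between these 4 mice only. Plac8, a gene of monocytes and plasmacytoid cells on chromosome 5 (100553725 to 100572245, build mm10), was at 73.3 and 58.7 CPM with control and 5.22 and 3.16 CPM with stroke marrow (log2 fold change -3.84 ± 0.47, edgeR adjusted p = 4.21e-04). In control 1 a single barcode held 22 of 23 UMIs and in control 2 a single barcode held 26 of 35. With the largest barcode of each mouse left out, Plac8 was under the low-count filter and not tested. With the replicate block Plac8 lost the call (log2 fold change -3.90, edgeR adjusted p = 0.105). Nor was it called at a GFP limit of 0, without Scrublet doublets or without cells holding other cell types' transcripts. Without control 1 the log2 fold change was -3.72 (edgeR adjusted p = 0.222). The positive macrophages had the same order, at 42.4 and 23.6 against 6.21 and 3.6 CPM. In GFP-rich macrophages Plac8 had the opposite order, at 528 and 798 against 1111 and 861 CPM.

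Gm10076, a ribosomal protein pseudogene on chromosome 14 (105681828 to 105682211), was also called and was spread over many cells. Gm10076 was at 140.2 and 518 against 50.9 and 39.6 CPM (log2 fold change -2.94 ± 0.38, edgeR adjusted p = 5.74e-04). Control 2 stood far above the other mice. It did so in every set of cells, including blood, where Gm10076 was at 188.9, 899.0, 112.4 and 89.96 CPM. Without control 2, Gm10076 had -1.59 (edgeR adjusted p = 0.000404). It lost the call with DESeq2 (adjusted p = 1), with the replicate block (edgeR adjusted p = 0.319) and without cells holding other cell types' transcripts (edgeR adjusted p = 0.233). As a pseudogene it shares sequence with its parent gene, and its counts are uncertain.

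Genes closest to the threshold included Il31ra, a cytokine receptor, at 63.7 and 90.6 CPM with control and 35.3 and 15.8 CPM with stroke marrow (log2 fold change -1.60 ± 0.35, edgeR adjusted p = 0.157). In blood it was at 77.5, 102, 47.7 and 15.8 CPM, the same order of the groups as in the negative macrophages. H2-M2 had the reverse order, at 25.5 and 30.2 against 103 and 60.1 CPM (log2 fold change 1.53 ± 0.34, edgeR adjusted p = 0.157). Chil3, a monocyte lectin gene (log2 fold change -3.31, edgeR adjusted p = 0.121), and Prc1, of dividing cells (-2.81, edgeR adjusted p = 0.157), were read in few cells of the control mice, where 1 barcode held 12 of 13 and 12 of 14 UMIs of Chil3.

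The inflammatory genes of the set did not pass. Cxcl2 was at 1227 and 2165 CPM with control and 3820 and 2526 CPM with stroke marrow (log2 fold change 0.89 ± 0.22, edgeR adjusted p = 0.231). Its mice did not overlap, as was true of 34.0% of all tested genes. Il1b was at 472 and 607 against 623 and 902 CPM (log2 fold change 0.49 ± 0.20, edgeR adjusted p = 0.897), Tnf had a log2 fold change of 0.41 (edgeR adjusted p = 0.990), and Ccl2 was at 245 and 144 against 118 and 90.2 CPM (-0.83 ± 0.24, edgeR adjusted p = 0.661). Of the markers, Ms4a7 (0.47), Cxcl16 (0.40), Vcam1 (0.26), Ccl12 (0.08) and H2-Aa (-0.07) did not pass either (log2 fold changes, edgeR adjusted p from 0.897 to 0.994). Without stroke 1, Ccl12 was lower with stroke marrow (log2 fold change -1.353, edgeR adjusted p = 0.0027). Spp1 (osteopontin) had 1.35 (edgeR adjusted p = 0.932) and Il10 had 1.69 (edgeR adjusted p = 0.959), each from few cells. Ciita, which was higher than in positive macrophages, had -0.66 with stroke marrow (edgeR adjusted p = 0.798), and Ccr2 had -0.60 (edgeR adjusted p = 0.897).

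By list, 0 genes passed in the donor comparison except Plac8. The lysosome list had 29 of 35 tested genes higher with stroke marrow and a median log2 fold change of 0.19, against -0.0051 over all genes, and in 18 of 35 the mice did not overlap, where 34.0% of all tested genes had no overlap. The matrix and fibrosis list had 15 of 17 higher with a median of 0.38, and the AP-1 list had 3 of 20 higher with a median of -0.14. In these lists the mice did not overlap in 8 of 17 and 8 of 20 genes. Other lists leaned as well, with 10 of 11 cholesterol synthesis and uptake genes and 15 of 18 lipid-associated macrophage genes higher. All 7 tested cardiomyocyte genes were lower with stroke marrow, with a median of -0.50, and their part in the other medians was not tested.

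**Figure D5:**
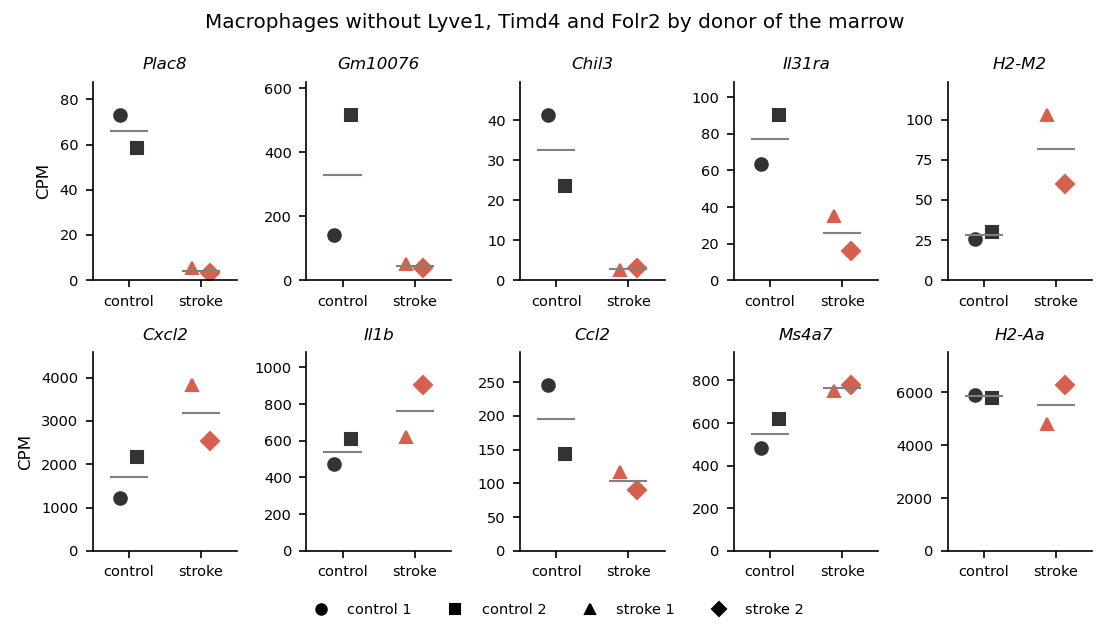
Levels in CPM of 10 genes in negative macrophages by donor group; each symbol is 1 mouse and each line the mean of 2. Plac8 and Gm10076 passed the threshold, with control 2 the highest mouse for Gm10076 (518 CPM), and the other 8 did not pass.

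The effect of stroke marrow was also compared between the negative and the positive macrophages of the same mice, with the interaction of cell set and donor group in edgeR. Of 7993 genes, 2 (0.025%) passed, 1 higher (0.0125%) and 1 lower (0.0125%), and 362 (4.53%) had an unadjusted p under 0.05. Cxcl9, a chemokine induced by interferon gamma, was at 0, 31.9, 1.31 and 0 CPM in the negative and 0, 0.463, 55.9 and 2.06 CPM in the positive macrophages. Gzma, a granzyme of cytotoxic lymphocytes, was at 0, 10.1, 106 and 3.16 CPM against 246, 17.1, 5.48 and 1.54. Single barcodes held 17 of 19 Cxcl9 UMIs in control 2 and 78 of 81 Gzma UMIs in stroke 1, and with the largest barcode of each gene and mouse left out 0 genes passed. Without cells holding other cell types' transcripts neither passed. The NK cell list, to which Gzma belongs, summed to 0, 41.9, 172.4 and 4.7 CPM in the negative macrophages, and its part in the result was not tested.

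Within the negative macrophages, clustering at a resolution of 0.5 gave 4 groups of 248, 217, 78 and 12 cells, with all 4 mice in each, which are given by number and only as a description, in CPM of the genes left after removing those of the choice, sex-linked, mitochondrial and ribosomal genes. Cluster 1 led by fold with Fbxl20 (117 against 39.95 CPM in the other cells), Cd163 (345.9 against 143.5 CPM) and Cmah (121 against 43.2 CPM). Cluster 2 led with immediate early and chemokine genes such as Ier2 (2168 against 547 CPM), Egr1 (3294 against 1108 CPM) and Ccl3 (599 against 141 CPM), and Ccl12 was at 478 against 167 CPM. Cluster 3 led with Cd207, which encodes langerin, at 906 against 12.1 CPM and in 34.6% of its cells, followed by Nppa (264 against 7.62 CPM), the atrial natriuretic peptide gene of cardiomyocytes. Cluster 4, of 12 cells, led with genes of dividing cells. In CPM of all gene UMIs, Cxcl2 was at 151, 4049, 4485 and 4245 in clusters 1 to 4. Ccl3 was at 30.2, 506, 267 and 291 CPM, Ccl4 at 85.9, 1188, 1159 and 2299 CPM and Il1b at 317, 848, 985 and 766 CPM. Cluster 1 lay below the positive macrophages of each mouse for the 3 chemokines and above them for Il1b.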

How the data were processed

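Gene UMI counts per barcode and hashtag counts were deposited by the authors as unnormalised matrices, made with Cell Ranger 7.1.0, per the submitters' processing notes. Barcode suffixes were taken to follow the sample numbers in the labels. The members and gene lists were chosen with earlier results of these data known. UMIs of the members were summed per mouse and fitted with edgeR 4.0.16 (TMM, low-count filter, quasi-likelihood test, Benjamini-Hochberg threshold 0.05), with the mouse as a block between cell sets. Levels in the text are CPM of all gene UMIs of a sum, and folds are from the fits. Libraries held 10067873 to 16513840 UMIs. Labels do not name separate cultures or donors, so p-values measure only the spread between these samples. The tests were tested on simulated data: of 100 genes changed 2-fold, 64 were recovered in the donor comparison, and of 100 changed 4-fold, 100. The changed genes were drawn from well-read ones, and all genes were given the same spread between mice. Recovery at low levels, or where single barcodes hold most UMIs, was not simulated. Genes named were the markers, a list of key genes, the 10 largest changes in each direction with the same direction in every mouse and a mean of 20 CPM or more, and the 3 largest per list. Where fewer than 10 genes passed, those with the smallest p were added. Clusters came from scanpy 1.11.5 and leidenalg 0.10.2. Doublets were kept, and Scrublet calls served as an alternative, as did DESeq2 1.42.0, thinning, stricter limits on cells and leaving out each mouse. Of the called genes, 1 of the donor comparison is not reported here.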

Additional observations from a re-analysis of the deposited data

Results flagged for a closer look

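The stroke effect differed between negative and positive macrophages for 2 genes by the edgeR interaction test. For Cxcl9 the difference of log2 fold changes was -11.03 (SE 1.13, edgeR adjusted p = 8.71e-07), with 148 of 153 UMIs of the positive macrophages of stroke 1 in 1 barcode. For Gzma it was 7.661 (SE 0.77, edgeR adjusted p = 8.71e-07), with 166 of 168 UMIs of the positive macrophages of control 1 in 1 barcode. Neither passed with the largest barcode of each gene and mouse left out.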

How the results depend on the processing

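In the donor comparison, 3 genes became 1 with DESeq2, 37 with no low-count filter, 0 without cells holding other cell types' transcripts and 0 with the replicate block, and 2 to 72 when each mouse was left out in turn (72 without control 2, 25 without stroke 1, 16 without stroke 2). Deviations from the group means in mice of equal replicate number had r = -0.0142 over 3456 genes. Control 1 also stood apart in Xist, Ddx3y and kgfp, so this value cannot decide whether equal numbers share a batch. Donor log2 fold changes that reversed were Tnf (-0.5218), Ccl12 (-0.3428) and Mrc1 (0.08272) without other types' transcripts, Ccl12 at a GFP limit of 0 (-0.2489) and with the replicate block (-0.1715), and, leaving out each mouse, Ccl12 (-1.353, edgeR adjusted p = 0.0027 without stroke 1, to 0.7612), H2-Aa (-0.2922 to 0.1405) and Apoe (-0.09989 to 0.3781). In fits and shares of barcodes after thinning, the sets were chosen again on the thinned counts and hold partly other cells. Against positive macrophages, 1278 genes became 658 with DESeq2, 818 with no mouse block, 477 without other types' transcripts, 770 after thinning and 982 to 1199 without each mouse. There Ccl12 reversed with comparison cells of 3 or more UMIs (0.06915), without other types' transcripts (0.07201) and after thinning (0.1092), Plac8 without the largest barcode (-0.2955) and Sdhc after thinning (0.05136). Against GFP-rich macrophages, 1231 became 522 with DESeq2, 141 without other types' transcripts, 279 after thinning and 874 to 1084 without each mouse. Without other types' transcripts, 2, 15, 18 and 8 GFP-rich macrophages were left by mouse, below the 20 set as the minimum for this comparison. There 2578 genes were tested. After thinning, 6 were left in control 1 and 3517 genes were tested. The part of these losses in the counts was not tested. Ifi27l2a (0.04613) and Hspa1a (-0.1557) reversed after thinning and Cd63 (-0.266) without other types' transcripts. In the interaction, 2 became 0 with DESeq2, after thinning and without the largest barcode, 1 at a GFP limit of 0, without Scrublet doublets and with stricter cell filters, 4 with comparison cells of 3 or more UMIs, 13 with no low-count filter and 7 to 20 without each mouse. It stayed 2 without other types' transcripts, but with 0 shared, as Cxcl13 and Retnla passed in place of Cxcl9 and Gzma. There Gzma (-1.542) and Prdx1 (0.03385) reversed after thinning, Retnla without Scrublet doublets (1.284) and the largest barcode (1.582), and Prdx1 (0.1572) and Clec4d (1.438) without other types' transcripts. The share of heart barcodes differed by 3.656 points without other types' transcripts and by 1.745 to 3.085 without each mouse, and that of C1q-positive barcodes by 1.151, by -5.132 after thinning and by -3.5 to 1.723 without each mouse (1.723 without control 1, 0.975 without stroke 1). Clustering at a resolution of 0.8 gave 8 groups. The causes were not tested. Of 106 called genes named against positive macrophages, 79 were tested in all 17 alternatives and 57 of these kept the call in each. Against GFP-rich macrophages, 55 of 100 were tested in all 15 and 23 kept it. Leaving out the largest barcode and the limit of 3 UMIs on comparison cells were chosen after seeing the data.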

Other observations

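Cd207, which encodes the lectin langerin, was read in 35 of 555 negative macrophages (2, 12, 17 and 4 by mouse), in 4.87% of positive and 3.07% of GFP-rich macrophages, in 0.83% of other heart barcodes and in 0 of 4810 blood barcodes. Of these 35 cells, 88.57% held an Id3 UMI against 8.08% of the other negative macrophages, 42.86% against 9.62% held Tnip3 and 82.86% against 47.88% held Il1b. The cardiomyocyte gene Nppa was in 34.29% against 3.27%, at median depths of 4503 and 3911 UMIs. These cells were singled out after their values were seen, and no test was made.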
